A study of Mus musculus with 2 samples.

Results

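Fatty acid oxidation and ketogenesis were read through 31 genes, chosen by symbol from a list and found as rows of both count matrices, out of 33696 genes in all. The matrices come from liver of mice (Mus musculus) measured by droplet single-cell RNA sequencing. 1 library was titled SLC22A18-/-, a knockout of the transporter gene Slc22a18, and 1 library was titled SLC22A18+/+, wild type. The labels give neither the strain, age and diet of the mice nor how many were used, and they do not say which exons were removed. With 1 library per genotype there was no replicate and no test, so genotype, animal and tissue preparation cannot be told apart in any difference between the libraries. All intervals are exact 95% intervals for counting error only.

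Fatty acids are activated to acyl-CoA on entry into the cell, carried into mitochondria as carnitine esters and shortened in repeated rounds of dehydrogenation, hydration, dehydrogenation and thiolytic cleavage. Peroxisomes shorten very long and branched chains by a parallel set of enzymes. In the fasted liver the acetyl-CoA that results is turned into ketone bodies for export, and the nuclear receptor PPARA, which binds fatty acids, drives many genes of both routes. The liver lobule is divided along the blood flow from the portal vein to the central vein, and hepatocytes differ in metabolism along that axis.

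The knockout-labelled library held 103478998 unique molecular identifiers (UMIs, each a captured RNA molecule) in 11741 barcodes, and the wild-type library 105556354 in 12796. After filtering, 11134 and 12029 cells remained, with medians of 5854 and 5362 UMIs. The libraries shared 38 barcode sequences. Slc22a18 itself was counted in hepatocytes of both libraries, with 1372 UMIs (54.2 CPM, counts per 1000000) in the knockout-labelled library and 1413 (58.2) in the wild type. This 3' count does not check the label, because the labels do not name the removed exons. All levels are given as CPM, taken over the pooled UMIs that a class of cells had in 1 library. A gene was called higher when its CPM was at least 25% above that of the other group and lower when the ratio was 0.8 or less, provided its UMIs summed to at least 50 over both groups and the interval of the ratio left out 1.

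Hepatocytes were 2842 cells of the knockout-labelled and 2782 of the wild-type library, in 5 clusters named from markers such as Alb, Ttr and Apoa1. They held 25319747 and 24275099 UMIs. In 4 of these clusters the nuclear RNA Malat1 was high, at 37850 and 42014 CPM over the 4 together. The remaining cluster had 969 and 807 CPM of Malat1, and made up 14.4% of the knockout-labelled and 18.3% of the wild-type hepatocytes. These 2 groups of barcodes are called Malat1-rich and Malat1-poor hepatocytes below. A further cluster of 345 and 497 barcodes scored highest for hepatocyte markers but was left unnamed for few UMIs, and is not in these shares. Its leading genes included Fabp2, Chchd10, Ttc36 and Urah, which also led the Malat1-poor cluster. Other RNAs kept in the nucleus moved with Malat1: Neat1 was at 2653 and 2892 CPM in Malat1-rich against 71.8 and 54.3 CPM in Malat1-poor barcodes, and Xist at 3842 and 3531 against 107 and 82.4 CPM. Albumin RNA was higher in the Malat1-poor group (10150 and 13320 against 7043 and 7547 CPM). Whether the barcodes of either group held whole cells, nuclei or damaged cells was not tested, so each comparison between the groups is one between barcodes and not between types of hepatocyte. This split was made after the data were seen, and it is shown because several of the oxidation genes differed far more between the groups than between the libraries.

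2 of the 31 genes were higher in hepatocytes of the knockout-labelled library and none was lower, of 30 with enough UMIs. Over all 14524 genes compared in the same way, 6.56% were higher and 5.64% lower. The median log2 ratio of the 30 genes was 0.03, and that of all genes compared was 0.03. The 2 genes were Acaa1b and Acsl1. Both were above a ratio of 1.5, as 2.62% of all genes were (1.74% were lower by that much), and neither reached 2, which 0.695% of all genes did (0.399% in the lower direction). Acsl1 encodes a long-chain acyl-CoA synthetase, which activates fatty acids, and Acaa1b encodes a peroxisomal thiolase, which cleaves the shortened chain. A list of 16 immediate-early and heat shock genes was taken to follow the response to tissue dissociation. In the same cells 9 of the 16 were lower in the knockout-labelled library and none higher (summed level 917 against 1218 CPM). Neither the source of this difference nor its part in the differences below was tested.

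Acaa1b had 27302 UMIs (1078 CPM) in knockout-labelled and 16110 UMIs (664 CPM) in wild-type hepatocytes. The ratio was 1.62 (interval 1.59 to 1.66). The gene lies on GRCm38 chromosome 9 from 119148023 to 119157093 on the minus strand. Its paralogue Acaa1a, on the same chromosome from 119339676 to 119350299 on the plus strand, had 3659 UMIs (145 CPM) and 3087 UMIs (127 CPM), a ratio of 1.14 (1.08 to 1.19), which did not pass. The intervals of the 2 ratios do not overlap. The transcripts are alike enough to share reads. Of the 411 windows of 90 bases in the last 500 bases of an Acaa1b transcript of 1689 bases, 95 (23.1%) were found unchanged in an Acaa1a transcript, so reads from such stretches fit both genes and both counts carry that uncertainty.

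The bases before the starts of both thiolase genes are shown because the genes are close paralogues whose levels differed between the libraries by unequal amounts. They are from RefSeq on GRCm38.p6, run 5′ to 3′ on the strand of the gene and cover the 250 bases before the RefSeq start, chr9:119341044-119341293 (plus strand) for Acaa1a and chr9:119157094-119157343 (minus strand) for Acaa1b. The RefSeq start of Acaa1a lies inside the GENCODE span given above, downstream of its first base, and that of Acaa1b is the first base of its GENCODE span. Capitals mark each CCAAT box, a common promoter element, on either strand (ATTGG on the reverse).
Acaa1a: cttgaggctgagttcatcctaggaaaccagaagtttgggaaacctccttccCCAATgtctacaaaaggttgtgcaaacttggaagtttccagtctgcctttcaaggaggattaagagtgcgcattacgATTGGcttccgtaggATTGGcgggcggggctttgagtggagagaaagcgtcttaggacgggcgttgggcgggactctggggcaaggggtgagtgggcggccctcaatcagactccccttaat
Acaa1b: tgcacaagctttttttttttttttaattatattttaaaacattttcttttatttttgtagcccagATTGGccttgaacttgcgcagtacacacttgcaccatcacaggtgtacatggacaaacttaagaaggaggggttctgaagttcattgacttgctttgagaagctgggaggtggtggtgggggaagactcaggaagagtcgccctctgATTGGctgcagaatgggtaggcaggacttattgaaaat
The Acaa1a stretch holds 3 CCAAT boxes and the Acaa1b stretch 2. Aligned end to end over the 300-base windows that also hold the first 50 bases of the gene, the pair had 153 identical bases in 322 columns (47.5%), with gaps counted as differences.

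Acsl1 had 23412 UMIs (925 CPM) in knockout-labelled and 13927 UMIs (574 CPM) in wild-type hepatocytes. The ratio was 1.61 (1.58 to 1.65). The gene spans 65.0 kb of chromosome 8, from 46471037 to 46536051 on the plus strand, and RefSeq lists 2 starts for it. The counts come from the 3' end, so they do not separate RNA of the 2 starts. The 250 bases before each start are shown for that reason, on the plus strand, chr8:46470787-46471036 upstream of the gene and chr8:46490716-46490965 within it, with CCAAT boxes of either strand in capitals.
Acsl1 first start: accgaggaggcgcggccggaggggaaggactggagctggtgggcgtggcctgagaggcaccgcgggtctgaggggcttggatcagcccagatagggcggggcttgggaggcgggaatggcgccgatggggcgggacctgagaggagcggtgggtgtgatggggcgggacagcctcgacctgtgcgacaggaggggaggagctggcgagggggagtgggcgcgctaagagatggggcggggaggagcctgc
Acsl1 second start: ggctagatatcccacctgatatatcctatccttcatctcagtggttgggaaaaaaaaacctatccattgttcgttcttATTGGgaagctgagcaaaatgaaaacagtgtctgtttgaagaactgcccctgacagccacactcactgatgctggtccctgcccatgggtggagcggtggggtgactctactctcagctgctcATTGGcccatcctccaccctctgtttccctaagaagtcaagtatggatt
The 300-base window at the first start holds 30 CG dinucleotides and no CCAAT box before the start, and the window at the second start holds 4 CG dinucleotides and 2 CCAAT boxes.

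Promoter windows of 300 bases were at hand for 27 of the 31 genes (all but Acaa2, Decr1, Hsd17b4 and Acat1), 30 windows in all. The direct repeat that PPARA binds with its partner RXR, searched on both strands as 2 copies of AGGTCA spaced by 1 base of any kind, was in none of them and in 0.0396% of the 32851 windows of all genes. The single site AGGTCA was found for 4 genes (Cpt1a, Acadvl, Acadm and Echs1), in 13.3% of the member windows against 16.3% of all windows. CCAAT was found for 12 genes, in 40% of the member windows against 37.4% of all. The exact repeat was so rare, in 13 of the 32851 windows, that its absence from 30 windows does not set these genes apart. These are exact matches of letters in a short window. They say nothing of sites that depart from these letters or of elements further away.

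**Figure D1:**
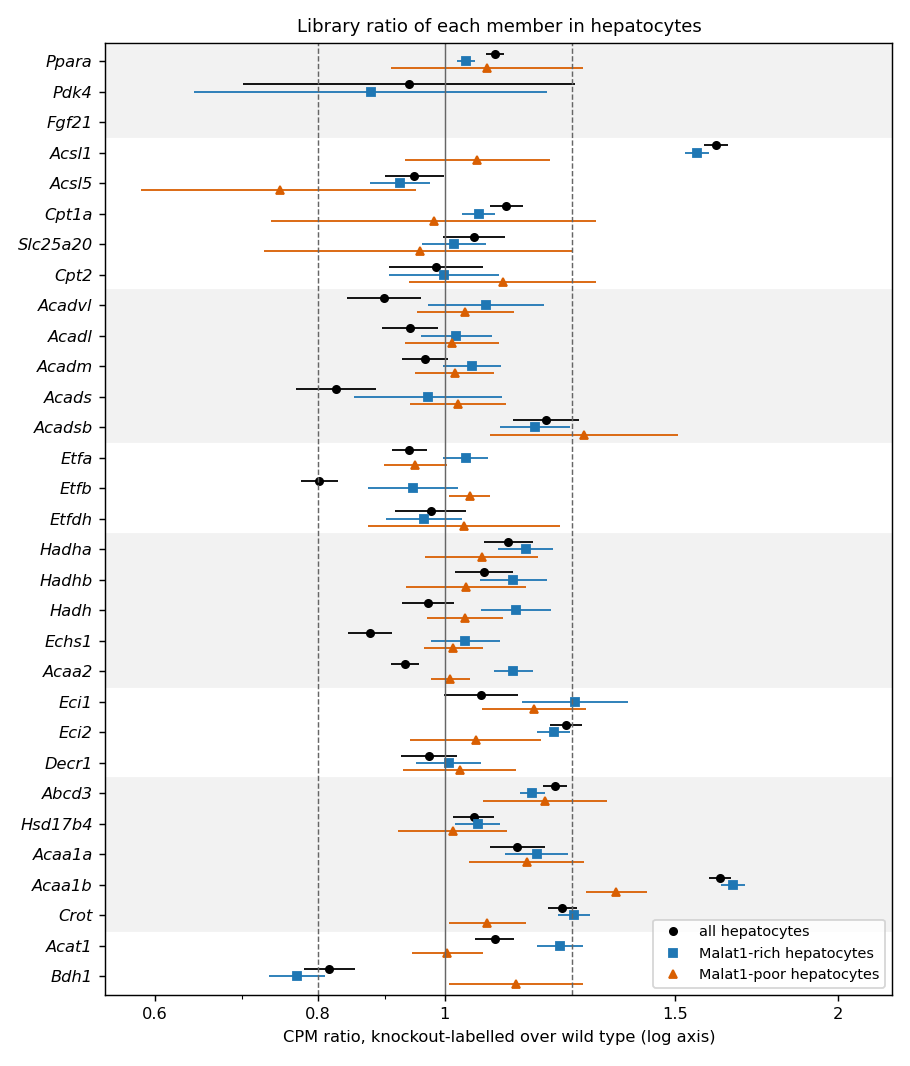
CPM ratio of each gene in hepatocytes, knockout-labelled over wild type, on a log axis, with exact 95% counting intervals as bars; dashed lines mark the limits for a call, and shading separates roles. Acaa1b and Acsl1 stand at 1.62 and 1.61 in all hepatocytes, and in Malat1-poor hepatocytes Acsl1 is at 1.06; genes with under 50 UMIs have no point.

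Among the regulators, Ppara itself had 32627 UMIs (1289 CPM) against 28645 (1180 CPM), a ratio of 1.09 (1.07 to 1.11). Pdk4 encodes a kinase that shuts off pyruvate dehydrogenase and so spares glucose, and its 96 and 98 UMIs gave 3.79 and 4.04 CPM (ratio 0.939, 0.701 to 1.26). Fgf21, the fasting hormone of the liver, had 18 and 23 UMIs and was not compared. No difference of Pdk4 was detectable at this depth over all hepatocytes. Pdk4 was called lower with doublet calls kept and at the coarser clustering (log2 ratio -0.65 and -0.55). With each cell weighted equally (log2 ratio -0.34) it also passed the ratio limit, but no interval was computed in that setting. Its value thus depends on these settings.

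Of the genes for entry into mitochondria, Cpt1a, the rate-setting carnitine transferase of the outer membrane, had 9965 UMIs (394 CPM) against 8574 (353 CPM), a ratio of 1.11 (1.08 to 1.15). Slc25a20, the carrier for acylcarnitine, and Cpt2, the transferase on the inner membrane, had ratios of 1.05 (0.996 to 1.11) and 0.984 (0.906 to 1.07). The second acyl-CoA synthetase, Acsl5, was at 0.948 (0.900 to 0.998). Acsl1 was thus the only one of these 5 genes to pass.

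The peroxisomal genes other than Acaa1b lay above 1 but under the required ratio. Crot, a carnitine transferase that exports shortened chains, had 13532 UMIs (534 CPM) against 10552 (435 CPM), a ratio of 1.23 (1.20 to 1.26). Abcd3, a transporter of fatty acyl-CoA into peroxisomes, had 18830 UMIs (744 CPM) against 14870 (613 CPM), a ratio of 1.21 (1.19 to 1.24). Eci2, an isomerase for unsaturated chains found in mitochondria and peroxisomes, had 11229 UMIs (443 CPM) against 8690 (358 CPM), a ratio of 1.24 (1.20 to 1.27), just under the limit. Hsd17b4, the multifunctional enzyme of the peroxisome, was at 1.05 (1.01 to 1.09).

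The mitochondrial enzymes of the cycle itself spread around 1. The acyl-CoA dehydrogenases ran from Acads, for short chains, at 0.825 (0.769 to 0.885; 1464 UMIs, 57.8 CPM, against 1701, 70.1 CPM) to Acadsb, for short branched chains, at 1.19 (1.13 to 1.27). Acadvl, for very long chains, had 1787 UMIs (70.6 CPM) against 1907 (78.6 CPM), a ratio of 0.898 (0.842 to 0.959). Etfb, a subunit of the flavoprotein that takes the electrons of these dehydrogenases, had the lowest ratio of the 30 genes, 0.802 (0.776 to 0.828), from 6874 UMIs (271 CPM) against 8222 (339 CPM), just short of the limit of 0.8. Its partner Etfa was at 0.940 (0.910 to 0.970). Echs1, the short-chain hydratase, had 4823 UMIs (190 CPM) against 5275 (217 CPM), a ratio of 0.877 (0.843 to 0.912). The remaining cycle genes (Acadl, Acadm, Etfdh, Hadh, Acaa2, Eci1, Decr1, Hadha and Hadhb) lay between 0.932 and 1.12.

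Of the ketone body genes on the list, Bdh1, the dehydrogenase that makes 3-hydroxybutyrate, had 3492 UMIs (138 CPM) against 4103 (169 CPM), a ratio of 0.816 (0.780 to 0.854). Acat1, which joins acetyl-CoA to acetoacetyl-CoA, was at 1.09 (1.05 to 1.13).

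The ratios of several genes were different within the 2 groups of hepatocytes. In Malat1-rich hepatocytes Acsl1 had 22969 UMIs (1038 CPM) against 13381 (665 CPM), a ratio of 1.56 (1.53 to 1.59), but in Malat1-poor hepatocytes it had 443 UMIs (139 CPM) against 546 (131 CPM), a ratio of 1.06 (0.932 to 1.20). Acaa1b passed in both groups, at 1.66 (1.63 to 1.70) and 1.35 (1.28 to 1.43). Crot and Eci1, at 1.26 (1.22 to 1.29) and 1.26 (1.15 to 1.38), passed in Malat1-rich cells, and Bdh1 was lower there at 0.771 (0.734 to 0.810). In Malat1-poor cells Acadsb was higher at 1.28 (1.08 to 1.51) and Acsl5 lower at 0.748 (0.586 to 0.95). This made 4 higher and 1 lower of 30 in Malat1-rich cells, beside 5.83% and 4.26% of all genes, and 2 higher and 1 lower of 29 in Malat1-poor cells, beside 3.86% and 3.39%.

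The low ratios of Etfb, Acads, Echs1 and Acadvl in all hepatocytes were not seen within either group. Etfb was at 0.945 (0.873 to 1.02) in Malat1-rich and 1.04 (1.01 to 1.08) in Malat1-poor cells, Acads at 0.971 and 1.02, Echs1 at 1.04 and 1.02, and Acadvl at 1.07 and 1.04. Malat1-poor cells gave 12.6% of the hepatocyte UMIs in the knockout-labelled and 17.2% in the wild-type library, and these genes had far higher levels in them.

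The level of a member differed between Malat1-poor and Malat1-rich hepatocytes by up to 30.4 times. Of 30 genes, 16 were higher and 7 lower in Malat1-poor cells in both libraries, beside 19.9% and 61.1% of all genes. Etfb stood at 1754 CPM in Malat1-poor and 57.7 CPM in Malat1-rich cells of the knockout-labelled library, a ratio of 30.4 (28.6 to 32.3), and at 1679 and 61.1 CPM in the wild type, a ratio of 27.5 (25.9 to 29.2). Acads followed with ratios of 13.9 and 13.2, Acadvl with 8.03 and 8.33, and Echs1 with 7.85 and 8.01. At the other end Ppara had 80.2 CPM in Malat1-poor and 1463 CPM in Malat1-rich knockout-labelled cells, a ratio of 0.0548 (0.0483 to 0.0620), and 74.4 and 1409 CPM in the wild type, a ratio of 0.0528 (0.0471 to 0.0591). Cpt1a, with ratios of 0.0618 and 0.0668, and Acsl1, with 0.134 and 0.197, lay next to it.

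The ratio followed the length of the gene, introns included. Across the 30 genes, whose points share the 2 groups of cells, Spearman's rho with gene length was -0.591 in the knockout-labelled and -0.589 in the wild-type library. Across all genes compared it was -0.446 (12802 genes) and -0.460 (12676 genes). Ppara (67.8 kb), Acsl1 (65.0 kb) and Cpt1a (63.4 kb) are among the longest of the list, and Acadvl (5.23 kb), Acads (9.05 kb) and Echs1 (10.8 kb) among the shortest. Hsd17b4, at 68.1 kb, had ratios of 0.990 and 1.03 in spite of its length, and Acaa1b, at 9.07 kb, had 0.793 and 0.974. Etfa, at 57.7 kb, went against the relation and was higher in Malat1-poor cells, at 2.83 and 3.09.

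**Figure D2:**
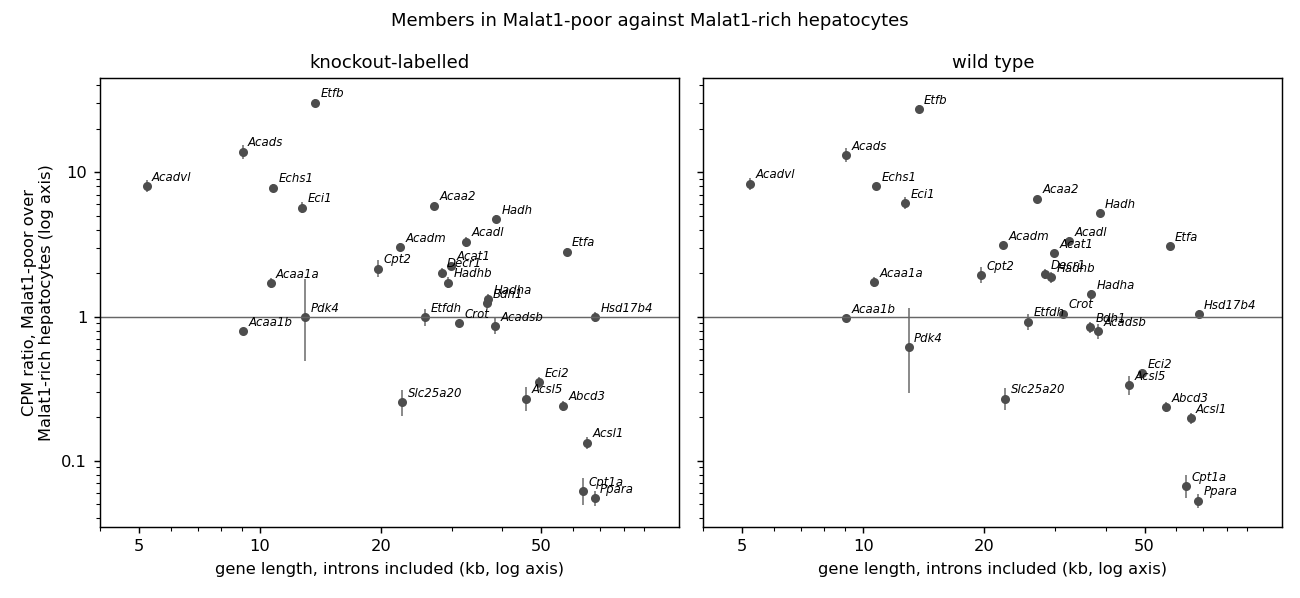
CPM ratio of each gene between Malat1-poor and Malat1-rich hepatocytes against gene length with introns, both on log axes, in each library; bars are exact 95% counting intervals. Etfb, at 13.7 kb, stands highest at 30.4 and 27.5, and Ppara, at 67.8 kb, lowest at 0.0548 and 0.0528.

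For position in the lobule, each hepatocyte was scored by 16 pericentral genes minus 14 periportal genes, none of them a member, and the cells were divided into 3 parts of equal number over both libraries together. The pericentral part held 1008 and 867 cells, the middle 938 and 936 and the periportal 896 and 979. The parts are ranges of a score and not types, and 427 and 437 cells lay within 0.1 SD of a boundary between parts.

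11 of the 30 genes compared were pericentral in both libraries and 4 were periportal, beside 9.99% and 11.0% of all genes. The 11 were Ppara, Acsl1, Cpt1a, Slc25a20, Etfdh, Eci2, Abcd3, Hsd17b4, Acaa1b, Crot and Bdh1, and the 4 were Acads, Etfb, Echs1 and Acaa2. Acaa1b fell from 1484 CPM in the pericentral part through 965 to 576 CPM in the periportal part of the knockout-labelled library, a ratio of 2.58 (2.48 to 2.67), from 14898 and 3459 UMIs at the ends. In the wild type it stood at 961, 610 and 402 CPM, a ratio of 2.39 (2.29 to 2.50), from 7579 and 2822 UMIs. Its paralogue Acaa1a was less steep, at 1.22 (1.12 to 1.33) and 1.44 (1.32 to 1.58), with intervals that do not overlap those of Acaa1b.

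The other pericentral genes declined toward the portal end in both libraries. Eci2 stood at 571, 413 and 277 CPM in the knockout-labelled library (ratio 2.06, 1.95 to 2.18) and at 488, 337 and 241 CPM in the wild type (2.03, 1.92 to 2.15). Acsl1 stood at 1144, 914 and 574 CPM (2.0, 1.92 to 2.07) and at 718, 565 and 424 CPM (1.69, 1.62 to 1.77). Ppara stood at 1550, 1292 and 847 CPM (1.83, 1.77 to 1.89) and at 1468, 1173 and 866 CPM (1.69, 1.64 to 1.75). Bdh1 stood at 170, 131 and 94.4 CPM (1.80, 1.64 to 1.99) and at 207, 166 and 131 CPM (1.58, 1.46 to 1.72). The UMIs behind the outer parts of these 4 genes ran from 567 to 15558. Cpt1a had a smaller ratio, 1.49 (1.41 to 1.58) and 1.33 (1.26 to 1.40). Pdk4, with 48 and 17 UMIs at the ends in the knockout-labelled library and 44 and 15 in the wild type, had ratios of 1.69 (0.954 to 3.13) and 2.61 (1.43 to 5.06). Fgf21, with at most 13 UMIs in any part, was not compared.

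The 4 periportal genes were among the 5 with the largest ratio between Malat1-poor and Malat1-rich cells in both libraries. Etfb stood at 166, 253 and 476 CPM in the knockout-labelled library (ratio 0.349, 0.328 to 0.371) and at 259, 332 and 436 CPM in the wild type (0.595, 0.562 to 0.630). Acads was at 0.471 (0.414 to 0.535) and 0.791 (0.699 to 0.894), Echs1 at 0.557 (0.519 to 0.598) and 0.693 (0.646 to 0.743), and Acaa2, the mitochondrial thiolase, at 0.643 (0.616 to 0.670) and 0.755 (0.724 to 0.788). Acadvl was at 0.582 (0.519 to 0.653) and 0.857 (0.764 to 0.962), and passed in the knockout-labelled library alone. The UMIs behind the outer parts of these 5 genes ran from 428 to 4652. Malat1-poor cells gave 25% and 22.5% of the UMIs of the periportal part and 6.97% and 13.2% of those of the pericentral part.

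Within either group of hepatocytes, divided anew into 3 parts, no member was periportal in both libraries. In Malat1-rich cells 17 of 30 genes were pericentral and none periportal, beside 5.64% and 5.98% of all genes. In Malat1-poor cells 10 of 29 were pericentral and none periportal, beside 4.78% and 3.48%. The periportal ratios of all hepatocytes moved to near 1 in Malat1-rich cells for Acads (1.06 and 1.14), Echs1 (1.03 and 1.01) and Acaa2 (1.01 and 0.990). Etfb stayed below 1 there, at 0.791 (0.682 to 0.919) and 0.857 (0.744 to 0.987), and was at 1.01 and 0.938 in Malat1-poor cells.

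Acaa1b was pericentral in both groups, with 2.60 (2.49 to 2.72) and 2.52 (2.40 to 2.65) in Malat1-rich cells and 2.48 (2.27 to 2.71) and 1.92 (1.75 to 2.1) in Malat1-poor cells. Bdh1 was likewise pericentral in both, at 1.89 and 1.5 in Malat1-rich and 2.16 and 1.90 in Malat1-poor cells. Acat1, the other ketone body gene, was at 1.10 and 1.15 in Malat1-rich cells but passed in Malat1-poor cells at 1.26 (1.12 to 1.41) and 1.59 (1.44 to 1.76). Some genes that had not passed in both libraries over all hepatocytes were pericentral in Malat1-rich cells in both libraries, among them Eci1 (1.68 and 1.53), Decr1 (1.41 and 1.29) and Cpt2 (1.52 and 1.59). Pdk4 was at 2.51 (1.22 to 5.82) and 3.52 (1.74 to 7.86) there. Cpt1a, in contrast, did not pass in Malat1-rich cells, at 1.22 (1.15 to 1.29) and 1.19 (1.13 to 1.26).

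**Figure D3:**
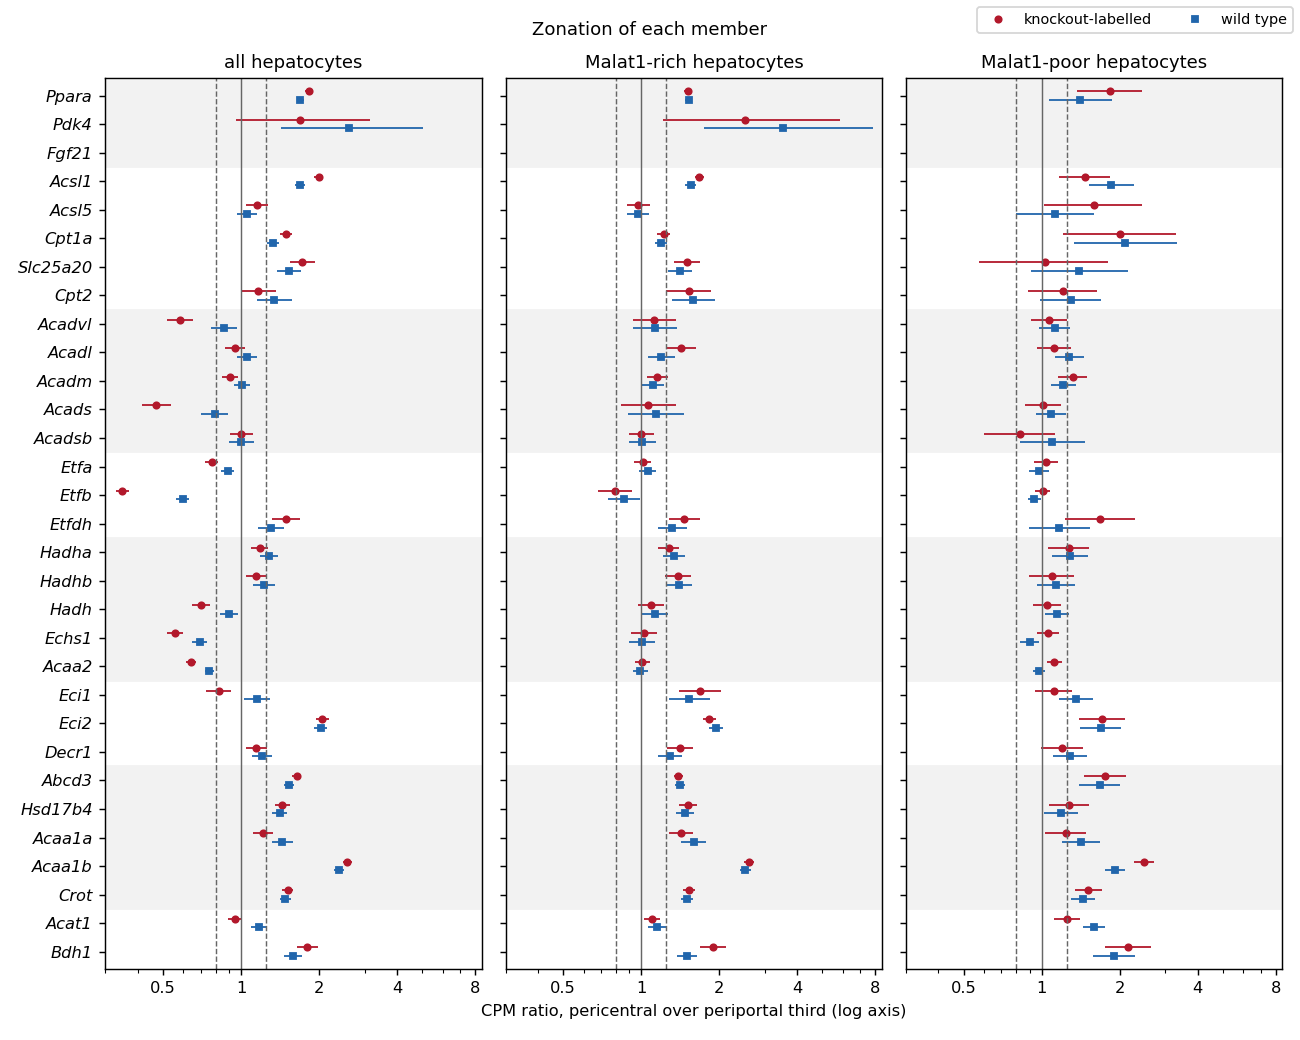
CPM ratio of each gene, pericentral over periportal part of the zone score, on a log axis, with exact 95% counting intervals; dashed lines mark the limits for a call. Etfb lies at 0.349 and 0.595 over all hepatocytes and at 0.791 and 0.857 in Malat1-rich cells, and Acaa1b lies to the right of the upper limit in all 3 panels.

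Hadha and Hadhb, the alpha and beta subunits of the trifunctional protein that carries out the last 3 steps on long chains, were alike in slope in Malat1-rich cells. Hadha was at 1.28 (1.16 to 1.40) and 1.33 (1.21 to 1.47), and Hadhb at 1.38 (1.24 to 1.55) and 1.40 (1.2 to 1.57). Their ratios between the libraries in all hepatocytes were 1.12 (1.07 to 1.17) and 1.07 (1.02 to 1.13). The 2 genes lie head to head on chromosome 5. In the GENCODE annotation Hadha starts, on the minus strand, at 30155162 and Hadhb, on the plus strand, at 30155248. RefSeq puts the first bases at 30154980 and 30155253. The 85 bases between the GENCODE genes, chr5:30155163-30155247, are shown as the stretch that both genes share, on the strand of Hadhb, with CG dinucleotides in capitals.
Hadha and Hadhb: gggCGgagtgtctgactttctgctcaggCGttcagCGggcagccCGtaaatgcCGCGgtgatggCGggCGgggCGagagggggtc
The RefSeq windows of both genes overlap by 228 bases.

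The library ratios of Acsl1 and Acaa1b passed in each part of the zone score. Acsl1 was at 1.6 (1.54 to 1.65) in the pericentral, 1.62 (1.56 to 1.67) in the middle and 1.35 (1.29 to 1.42) in the periportal part. Acaa1b was at 1.54 (1.5 to 1.59), 1.58 (1.53 to 1.64) and 1.43 (1.36 to 1.51). Bdh1 was at 0.821, 0.792 and 0.722 (0.649 to 0.802), and was called lower in the middle and periportal parts. Etfb was lower in the pericentral (0.640, 0.599 to 0.683) and middle (0.762, 0.722 to 0.804) parts and was at 1.09 (1.04 to 1.15) in the periportal part. Acads followed the same course, at 0.678, 0.769 and 1.14, and Acadvl was lower in the pericentral part (0.793, 0.706 to 0.891). Eci1 was higher in the periportal part alone, at 1.30 (1.15 to 1.47). Malat1-poor cells gave 6.97% and 13.2% of the UMIs of the pericentral part in the knockout-labelled and wild-type library. Their shares were 10.6% and 16.5% in the middle and 25% and 22.5% in the periportal part. Over all parts, Etfb was at 0.945 in Malat1-rich and 1.04 in Malat1-poor cells. The part of these shares in the ratios by zone was not tested. The counts were 2 higher and 3 lower in the pericentral part (7.10% and 9.37% of all genes), 2 and 3 in the middle (6.64% and 8.33%) and 3 and 1 in the periportal part (5.03% and 3.93%).

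**Figure D4:**
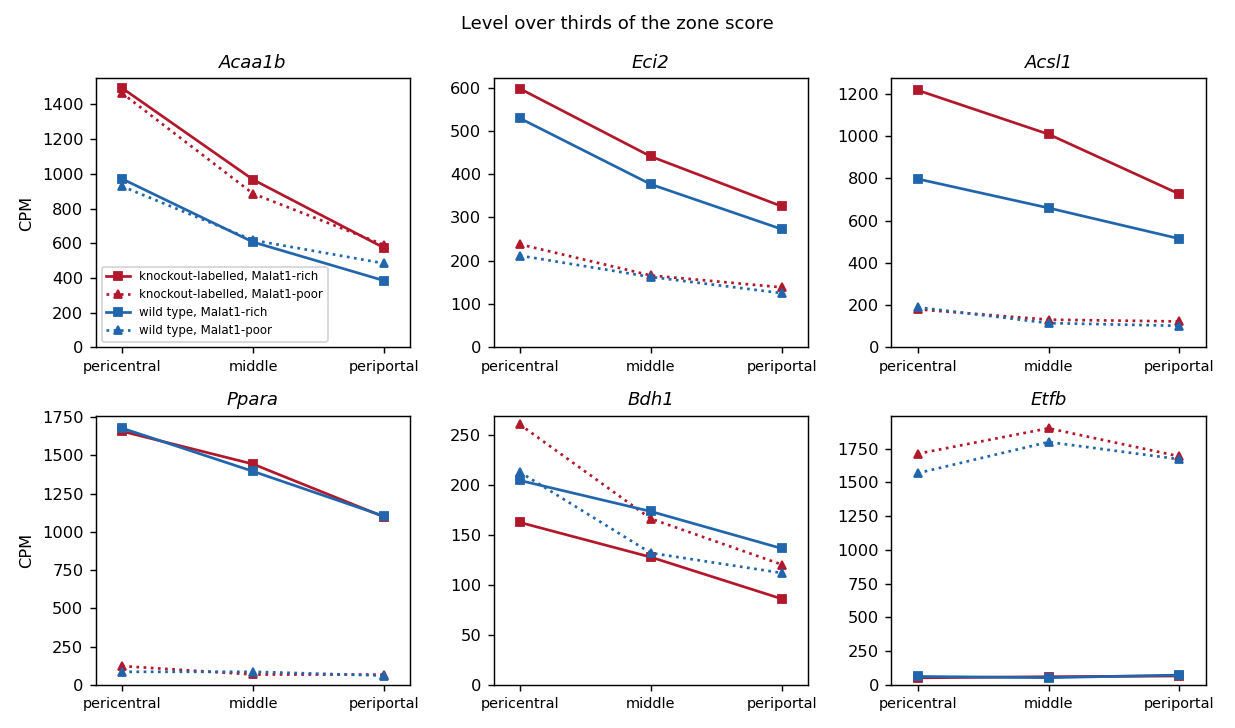
CPM of 6 genes in the 3 parts of the zone score, by library (colour) and group of hepatocytes (solid lines Malat1-rich, dotted lines Malat1-poor). Acaa1b declines from 1493 to 574 CPM in Malat1-rich knockout-labelled cells, and Ppara and Etfb differ more between the groups than between libraries or parts.

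In each class of which both libraries held 100 or more cells (hepatocytes, endothelial, Kupffer, stellate, T, NK/ILC1 and B cells), 30 of the 31 genes had their highest CPM in hepatocytes in both libraries. For Ppara the next class was 26.3 and 19.6 times lower, and for Acaa1b 19.8 and 17.3 times lower. For Acsl5 it was Kupffer cells, 1.14 and 1.28 times lower, and for Hadhb 1.46 and 1.12 times lower, in T and in NK/ILC1 cells. The interval of Hadhb in wild-type NK/ILC1 cells (86.5 to 125 CPM) held its hepatocyte level of 117 CPM, so the order of these classes was not settled at this depth. Fgf21 had 0.711 and 0.947 CPM in hepatocytes, on 18 and 23 UMIs. Without a UMI in NK/ILC1 cells, its intervals there reached 4.52 and 3.27 CPM, so its order was not settled either. The share of all genes highest in hepatocytes is not given, so the count is not read as particular to these genes. The exception was Pdk4, which was highest in endothelial cells, with 1258 UMIs (53.5 CPM) and 1239 UMIs (47.4 CPM), followed by stellate cells with 162 UMIs (32.7 CPM) and 155 UMIs (24.9 CPM). Hepatocytes stood at 3.79 and 4.04 CPM of Pdk4.

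Hepatocyte RNA that is free in the suspension enters droplets of every class. A gene was therefore taken as above the free RNA level of a class only when its CPM there, relative to hepatocytes, exceeded that of each of 12 secreted-protein genes in both libraries. The shares of all genes above this level are not given, so the counts of members above it are descriptive only. In endothelial cells the limit was 29.6% and 26.5% of the hepatocyte level, set by Alb, and 8 members were above it. These were Pdk4, Acsl5, Acadl, Acadsb, Etfb, Hadha, Hadhb and Acaa1a. The 3 with the most UMIs were Etfb (2085 UMIs, 88.6 CPM, and 2392, 91.6 CPM; ratio 0.967, 0.912 to 1.03), Acsl5 (1602, 68.1 CPM, and 1881, 72.0 CPM; ratio 0.945, 0.884 to 1.01) and Hadha (1648, 70.0 CPM, and 1782, 68.2 CPM; ratio 1.03, 0.959 to 1.10). Pdk4 was at 1.13 (1.04 to 1.22). None of the 8 passed between the libraries. Acaa1b, below the free RNA level at 33.4 and 21.9 CPM, was the 1 of 30 genes higher (1.53, 1.37 to 1.70) and none was lower, beside 2.51% and 3.43% of all genes.

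In stellate cells, 288 and 365 cells with a limit of 23.0% and 18.0%, 19 members were above the free RNA level. Acaa2 led with 1052 UMIs (212 CPM) and 1361 UMIs (218 CPM), a ratio of 0.972 (0.896 to 1.05), followed by Etfb (524 and 611 UMIs, 106 and 98.0 CPM, 1.08, 0.957 to 1.21) and Etfa (385 and 489 UMIs, 77.6 and 78.5 CPM, 0.990, 0.864 to 1.13). Among the 19, Pdk4 alone passed, at 1.31 (1.05 to 1.65). With Acsl1 (1.5, 1.27 to 1.78) and Acaa1b (1.42, 1.19 to 1.70), both below the free RNA level, 3 genes were higher, and Ppara, also below it, was lower (0.786, 0.665 to 0.927), beside 4.46% and 4.61% of all genes. A further cluster with stellate markers and hepatocyte RNA was left out of the class.

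In Kupffer cells, the liver's resident macrophages, the limit was 55.8% and 49.0%, set by Trf. The median of the secreted-protein genes there was 16.4% and 19.2%. Whether members between that median and the limit were free RNA was not tested. Only Acsl5 was above the limit, with 1317 UMIs (102 CPM) and 1101 UMIs (95.8 CPM), a ratio of 1.06 (0.979 to 1.15). Acaa1b (1.45, 1.3 to 1.69) and Pdk4 (49 against 19 UMIs; 2.29, 1.32 to 4.12) were higher but below that level, and none was lower, beside 3.55% and 4.64%. In T cells, with a limit of 32.2% and 29.5%, Acsl5, Acadl, Acads, Hadha and Hadhb were above it, led by Hadhb (280 UMIs, 85.7 CPM, and 287, 83.4 CPM; 1.03, 0.868 to 1.21), Hadha (270, 82.6 CPM, and 237, 68.9 CPM; 1.20, 1.0 to 1.43) and Acadl (159 and 159 UMIs, 48.6 and 46.2 CPM; 1.05, 0.839 to 1.32). Of genes below it, Etfb was higher (1.27, 1.07 to 1.52) and Ppara lower (0.539, 0.364 to 0.787), beside 9.62% and 4.50%.

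In NK/ILC1 cells, 143 and 213 cells with a limit of 42.0% and 43.0%, Acadl, Hadha and Hadhb were above it. Hadhb was lower, with 59 UMIs (72.3 CPM) against 118 (105 CPM), a ratio of 0.692 (0.497 to 0.953). Hadha was at 1.15 (0.839 to 1.57; 78 and 94 UMIs, 95.6 and 83.3 CPM) and Acadl at 1.21 (0.862 to 1.69; 69 and 79 UMIs, 84.5 and 70.0 CPM). Ppara, below the level, was higher with 40 against 28 UMIs (1.98, 1.19 to 3.33), beside 3.18% and 5.22% of all genes in the 2 directions. In B cells the limit was 68.1% and 56.1% and Pdk4 was above it, on 7 and 11 UMIs. Acsl1 (1.29, 1.04 to 1.59) and Acaa1b (1.40, 1.06 to 1.86) were higher there and Acaa2 lower (0.735, 0.590 to 0.913), all below the level, beside 3.53% and 4.78%. Acaa1b, below the free RNA level in all 6 of these classes, thus had ratios of 1.40 to 1.53 in 4 of them. It did not pass in T cells, with 88 and 91 UMIs (1.02, 0.751 to 1.38), or in NK/ILC1 cells, with 29 and 31 UMIs (1.29, 0.753 to 2.22).

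**Figure D5:**
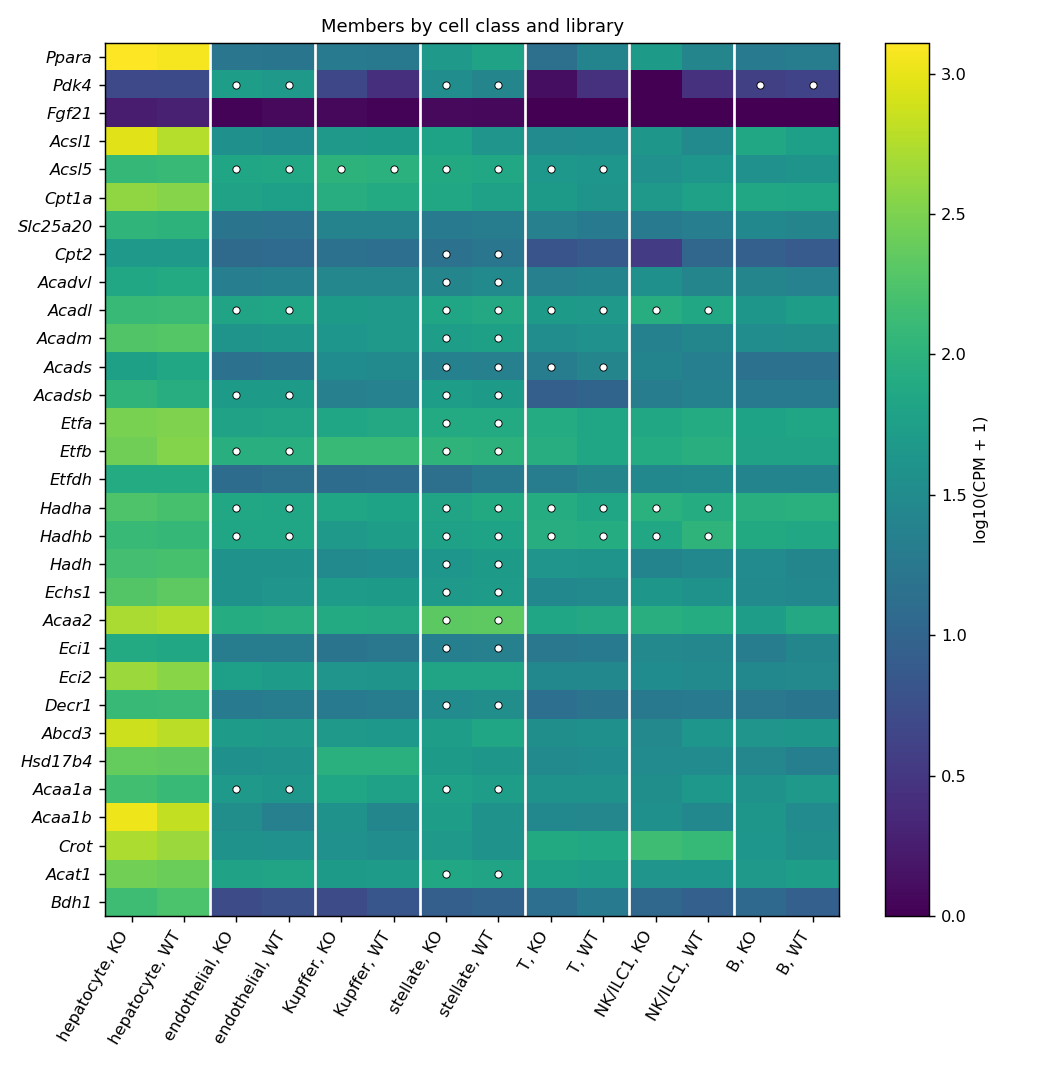
Level of each gene as log10(CPM + 1) by cell class, with KO for the knockout-labelled and WT for the wild-type library; white dots mark genes above the free RNA level of a class in both libraries. The hepatocyte columns are brightest in 30 of 31 rows, Pdk4 is brightest in endothelial cells, and stellate cells carry dots for 19 genes.

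Of 49 further genes of fatty acid oxidation and ketogenesis, 48 could be compared in hepatocytes, with 6 higher and none lower, beside 6.56% and 5.64% of all genes, and a median log2 ratio of 0.07, beside 0.03 for all genes. Hacl1, a peroxisomal lyase for branched chains, had 838.7 against 511 CPM (1.64, 1.61 to 1.68), and Abcd2, a second peroxisomal acyl-CoA transporter, 107 against 76.8 CPM (1.39, 1.31 to 1.48). By zone, 14 of 46 further genes were pericentral and 4 periportal in both libraries, beside 9.99% and 11.0% of all genes. In Malat1-rich cells 9 of 46 were pericentral and 3 periportal, beside 5.64% and 5.98%. In Malat1-poor cells 1 of 34 was pericentral and 1 periportal, beside 4.78% and 3.48%. The pericentral counts of the members within each group were thus not shared by these further genes to the same extent.

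Among 24 targets of PPARA outside oxidation, 9 were higher and 3 lower, beside the same 6.56% and 5.64%, with a median log2 ratio of 0.18. Acot3, a peroxisomal thioesterase, had 31.8 against 7.33 CPM (4.34, 3.68 to 5.13), and Cyp4a10, a fatty acid omega-hydroxylase, 163 against 76.5 CPM (2.13, 2.02 to 2.25). Both belong to families of similar genes, and the sequence they share with their relatives was not measured, so it is uncertain how their reads were divided. Angptl4, a secreted inhibitor of lipoprotein lipase, was lower at 0.692 (0.620 to 0.772), and so was Plin2, a lipid droplet coat protein, at 0.780 (0.749 to 0.812). In Malat1-poor cells Angptl4 was called higher, with 96 against 78 UMIs (1.61, 1.18 to 2.19), and Plin2, with 1456 against 1600 UMIs, was at 1.19 (1.11 to 1.28) and did not pass. By zone, 12 of 23 of these targets were pericentral and none periportal in both libraries, beside 9.99% and 11.0% of all genes. Of 20 regulators 1 was higher, Pparg (1.42, 1.30 to 1.54), and 2 lower, Nr0b2 (0.404, 0.366 to 0.445) and Ppargc1a, a coactivator of PPARA (0.766, 0.733 to 0.801). In Malat1-poor cells neither Ppargc1a, with 55 and 55 UMIs (1.31, 0.882 to 1.93), nor Pparg, with 23 and 43 (0.698, 0.402 to 1.18), passed.

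The nuclear-encoded respiratory chain, which takes up the electrons of oxidation, went the other way along the lobule, with 15 of 16 genes periportal over all hepatocytes, 9 in Malat1-rich and 7 in Malat1-poor cells, and none pericentral in any of them. Over all genes the periportal shares were 11.0%, 5.98% and 3.48%. Between the libraries 2 of the 16 were lower, Cycs (0.745, 0.710 to 0.782) and Cox4i1 (0.783, 0.759 to 0.807), and within either group of hepatocytes none passed. In the citric acid cycle Fh1 was lower (0.765, 0.720 to 0.813) and no other of 16 genes passed, and among the 13 mitochondrially encoded genes mt-Atp8 was higher (1.39, 1.12 to 1.72). Of the 12 secreted-protein genes that set the free RNA level, Fga (2.87, 2.79 to 2.95) and Fgb (1.88, 1.84 to 1.91) were higher (0.949 and 0.857 in Malat1-poor cells, where neither passed), and Serpina1c (0.625, 0.614 to 0.636) and Apoc3 (0.793, 0.782 to 0.804) lower. Among the genes listed for the dissociation response, Dusp1 (0.595, 0.566 to 0.625) and Zfp36 (0.603, 0.577 to 0.630) had the lowest ratios.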

How the data were processed

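Liver cells of 1 Slc22a18 knockout-labelled and 1 wild-type library were analysed. The authors deposited whole-number UMI counts for each gene in each barcode, not normalized, from libraries made with the Chromium 3' v3 kit per the labels' protocols. Cell Ranger 8.0.1 is named per the file headers, and Cell Ranger, STAR and mm10 per the submitters' processing notes. Which annotation was counted, and whether introns were included, is not stated there. The members and gene lists were chosen with earlier results of these data known. Named genes followed a rule on size: the 5 largest ratios in each direction, the 5 most pericentral and most periportal, in each other class the 3 members with most UMIs above the free RNA level and those past the rule, the 2 largest of each further list in each direction, and Ppara, Cpt1a, Pdk4, Fgf21, Acaa1a and Acaa1b always. The Malat1-poor values of the further lists were chosen after they were seen. Results for some further genes are not reported here.

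Cells needed 500 UMIs, 300 genes and no more than 20% of UMIs from mitochondrial genes. Scrublet in scanpy 1.11.5 (expected rate 8%) scored doublets, and 324 and 402 cells above a score of 0.291 were removed. That threshold is the automatic one of the wild-type library. Free RNA was not subtracted. Both libraries were clustered together on 2000 variable genes, without the members and the further lists, with 30 components, 15 neighbours and Leiden resolution 1.0, which gave 35 clusters. Clusters were named from marker lists by mean log2 ratio over the middle cluster. They were left unnamed with a median doublet score of at least 0.15, under 3 markers, or a best score under 1. A second class scoring at least 1.5 and 0.70 of the first also left a cluster unnamed. So did few UMIs without own markers among its 10 leading genes, or more markers of another class than its own there. The 5 hepatocyte clusters scored from 1.03 to 2.68, and none had an own marker among its leading genes. After seeing the data, clusters of another class were left unnamed too when 6 leading hepatocyte genes reached 25% of their hepatocyte level in them. Unnamed cells were 21.3% and 23.0%. UMIs were summed per class and library. Ratios carry exact Clopper-Pearson intervals and CPM exact Poisson ones. No p-value was computed. Log2 ratios have 0.5 added to each sum. The procedure, tested on simulated hepatocyte counts of 14507 genes with 200 changed 1.5-fold, recovered 100% of those raised and 100% of those lowered, and called 1.42% of the unchanged genes. The changed genes were drawn from those with at least 200 summed UMIs. Counts were simulated with counting error alone, around the pooled rate of both libraries. The simulation therefore cannot show how calls behave under differences between animals, preparations or shares of Malat1-poor cells. Coordinates are from GENCODE vM21 on GRCm38.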

Additional observations from a re-analysis of the deposited data

Results flagged for a closer look

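Bdh1, the dehydrogenase that makes 3-hydroxybutyrate, had library ratios on opposite sides of 1 in the 2 groups of hepatocytes, and only the Malat1-rich ratio passed. Its CPM ratio, knockout-labelled over wild type, was 0.771 (0.734 to 0.810) in Malat1-rich hepatocytes, from 134 against 174 CPM, and 1.13 (1.01 to 1.28) in Malat1-poor hepatocytes, from 166 against 146 CPM. In Malat1-poor hepatocytes 25 of the 29 members compared had a ratio above 1, beside 4317 of all 7904 genes compared there. A ratio above 1 in that group is thus not particular to Bdh1. Each group had 1 library per genotype, the groups were defined from the data, and the difference between them was not tested.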

How the results depend on the processing

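With 1 library per group, no spread between replicates was measured and no library could be left out. No paired analysis was possible because each genotype had 1 library and no result came from a test. The main counts were 2 genes higher and 0 lower in hepatocytes, 2 higher and 0 lower in all 3 parts of the zone score, 11 pericentral and 4 periportal, 37 pairs of a gene and another class above the free RNA level, and among those pairs 1 higher and 1 lower. Keeping doublet calls gave 4 higher and 1 lower in hepatocytes (Eci2 and Abcd3 joined, and Pdk4 was lower) and 2 periportal. Up to 10% mitochondrial UMIs gave 1 lower (Etfb) and 2 pairs higher. Leiden resolution 0.5 gave 3 higher (Eci2 joined), 2 lower (Pdk4 and Etfb) and 2 periportal. Each cell weighted equally gave 1 lower (Pdk4), 0 periportal, 16 pairs above the free RNA level and 3 pairs higher. Median-of-ratios size factors gave 1 lower (Etfb), equal zone weights gave 1 lower (Bdh1) and leaving out shared barcodes, chosen after seeing the data, gave 1 lower (Etfb). With each cell weighted equally and with equal zone weights no interval was computed. The calls under those 2 settings rest on the ratio and the UMIs alone. A ratio of at least 1.5 left 0 higher in all 3 parts, 7 pericentral, 1 periportal, and 0 pairs higher or lower. A ratio of at least 2 left 0 higher in hepatocytes, 0 in all 3 parts, 2 pericentral, 0 periportal and 0 pairs in either direction. Comparing only the outermost ends of the zone score, with 5 parts in place of 3, gave 1 periportal. With the panel median as the free RNA limit 91 pairs were above it and 3 higher. The Malat1 splits, chosen after seeing the data, gave 4 higher and 1 lower in Malat1-rich cells, 1 lower in all 3 parts (Bdh1), 17 pericentral, 0 periportal and 2 pairs higher. In Malat1-poor cells they gave 1 lower (Acsl5), 0 higher in all 3 parts, 0 periportal and 4 pairs higher. Acsl1 and Acaa1b were higher in hepatocytes under each of these settings except a ratio of at least 2, and, for Acsl1, in Malat1-poor cells. The ratios of Acsl1 and Acaa1b stayed above 1 in hepatocytes under every setting run. Bdh1, called in Malat1-rich cells, lay on the other side of 1 in Malat1-poor cells, and so did, of the further-list genes called over all hepatocytes, Angptl4, Plin2, Ppargc1a, Pparg, Cox4i1, Fga and Fgb. Where not shown by the setting itself, the cause was not tested.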
